A study of Mus musculus with 6 samples.

Results

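The genes described here are 5 that serve antigen presentation by major histocompatibility complex (MHC) class I molecules: the heavy chain genes H2-K1, H2-Q1 and H2-T23, the light chain gene B2m and Tapbp, which encodes tapasin. They were measured in 6 mouse mammary tumour cell lines, each hybridised to 1 array. The tumours arose in mice with ErbB2 driven by MMTV, a viral promoter used to express genes in the mammary gland. The dissociated cells went through a short culture step against fibroblasts and were then grown for 25 passages. Lines 31, 101 and 102 were Akt1 wild type, labelled akt(+/+), and lines 72, 75 and 116 were Akt1 knockouts, labelled akt(-/-). The labels give no strain, H-2 haplotype or animal for any line, so that p-values measure only the spread between these lines. All probe sets carrying one of the 5 symbols were taken, which gave 5 of 45037 probe sets, 1 for each gene. They were chosen by measured values: a symbol was deposited only for probe sets whose deposited p for this same comparison was below 0.05, 5604 in all, and the differences of the 5 are therefore a description, without a test. Any other probe sets of these genes, which would carry no symbol, were not analysed here.

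MHC class I molecules display short peptides from inside the cell to CD8 T cells. A polymorphic heavy chain pairs with beta-2 microglobulin, the product of B2m, and the pair is held in the endoplasmic reticulum by the peptide loading complex, in which tapasin bridges it to the TAP peptide transporter until a peptide is bound. H2-K1 encodes a classical heavy chain, whereas H2-T23 encodes the non-classical molecule Qa-1, which shows leader peptides of other class I chains to the CD94/NKG2A receptor of natural killer cells. H2-Q1 is a class I gene of the Q region. In most cell types, interferons raise the transcription of class I genes through interferon-stimulated response elements, and NF-kB, CREB and NF-Y family factors bind nearby promoter sites.

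In GRCm38.p6, 4 of the genes lie in the MHC of chromosome 17. These are Tapbp (33919478 to 33929290), H2-K1 (33996012 to 34000619), H2-Q1 (35320525 to 35328142) and H2-T23 (36029977 to 36032701). B2m lies on chromosome 2 (122147687 to 122153082). RefSeq promoter sequence was matched for 4 of the 5 genes. The 250 bases before the first listed transcript start are shown, 5′ to 3′ on the gene's strand, because interferon and NF-kB are known to act on class I genes through sites near the start. Capitals mark matches, on either strand, to 5 motifs: GAANNGAAA and AAANNGAAA for the interferon-stimulated response element, the NF-kB site, the CRE core TGACG and CCAAT. GAANNGAAA is called the short form here and AAANNGAAA the long form, although both are 9 bases long. Matches of 1 motif on both strands or 1 base apart run together. The windows are chr2:122147437-122147686 on the plus strand for B2m, chr17:34000348-34000597 on the minus strand for H2-K1, chr17:36032702-36032951 on the minus strand for H2-T23 and chr17:33919228-33919477 on the plus strand for Tapbp. The H2-K1 window falls inside the annotated extent of that gene, at its 5′ end; 2 starts are listed for it in the promoter table.
B2m: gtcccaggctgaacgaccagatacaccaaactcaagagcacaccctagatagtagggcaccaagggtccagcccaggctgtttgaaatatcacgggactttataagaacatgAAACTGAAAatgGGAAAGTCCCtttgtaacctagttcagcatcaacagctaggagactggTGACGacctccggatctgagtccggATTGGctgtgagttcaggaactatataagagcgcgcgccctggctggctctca
H2-K1: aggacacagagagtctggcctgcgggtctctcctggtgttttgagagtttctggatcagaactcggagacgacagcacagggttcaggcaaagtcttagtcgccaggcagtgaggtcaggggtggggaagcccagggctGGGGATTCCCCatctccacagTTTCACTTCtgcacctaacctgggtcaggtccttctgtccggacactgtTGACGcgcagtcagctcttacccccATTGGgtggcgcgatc
H2-T23: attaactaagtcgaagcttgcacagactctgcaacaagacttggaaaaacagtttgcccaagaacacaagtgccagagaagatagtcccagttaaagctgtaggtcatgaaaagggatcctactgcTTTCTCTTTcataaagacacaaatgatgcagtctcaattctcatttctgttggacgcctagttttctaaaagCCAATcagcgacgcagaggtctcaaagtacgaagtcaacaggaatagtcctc
Tapbp: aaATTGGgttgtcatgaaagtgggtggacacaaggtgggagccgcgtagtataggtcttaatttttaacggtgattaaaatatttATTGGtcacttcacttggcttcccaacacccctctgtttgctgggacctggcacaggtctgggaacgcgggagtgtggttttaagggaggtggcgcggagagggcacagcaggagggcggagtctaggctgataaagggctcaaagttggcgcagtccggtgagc

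**Figure D1:**
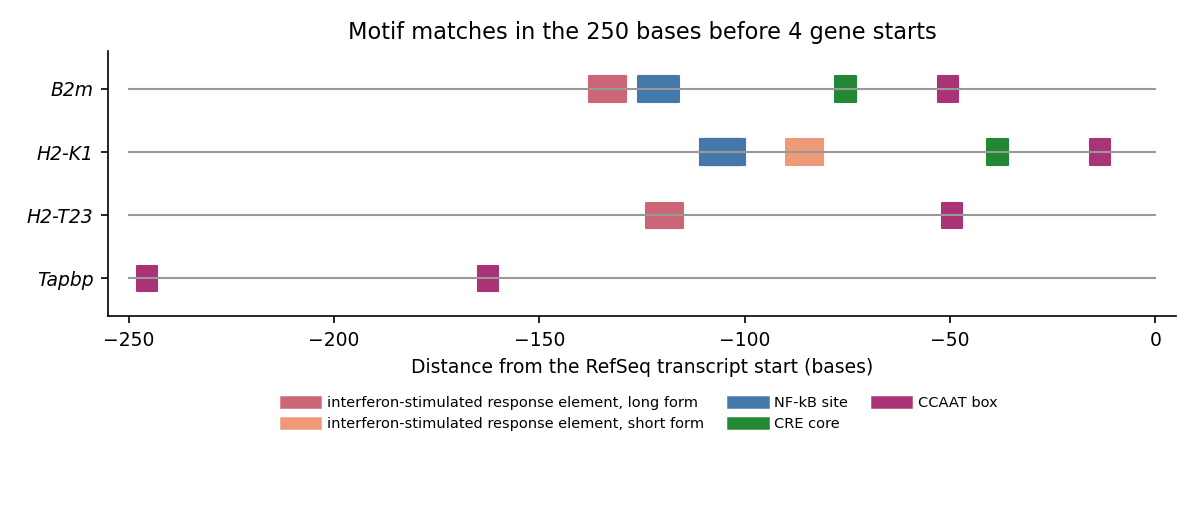
Motif matches (coloured boxes) in the 250 bases before the RefSeq start of B2m, H2-K1, H2-T23 and Tapbp, with the distance from the start in bases on the horizontal axis. B2m, H2-K1 and H2-T23 each hold a match to a form of the interferon-stimulated response element, and Tapbp holds CCAAT boxes alone. The motifs were chosen after the sequences were seen.

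B2m and H2-T23 held the long form of the interferon-stimulated response element, at bases -138 to -130 and -124 to -116, and 9.37% of 32851 promoter windows of this length hold it. H2-K1 held the short form at -90 to -82, found in 6.31% of windows. The NF-kB site lay beside it in B2m (-126 to -117) and in H2-K1 (-111 to -101), against 7.25% of windows, and was not matched in the windows of H2-T23 and Tapbp. The CRE core was matched in B2m (-78 to -74) and H2-K1 (-41 to -37), against 17.8% of windows. All 4 held a CCAAT box, as 33.8% of windows do. The motifs were chosen after these sequences were seen, so the shares cannot show whether the matches are unusual. A match describes these letters and does not show that a factor was bound.

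Akt1 itself, a serine/threonine kinase gene, separated the genotypes as labelled. Its probe sets averaged 9.94 ± 0.20 and 7.01 ± 0.23 log2 units in the wild-type lines against 4.53 ± 0.13 and 3.99 ± 0.10 in the knockout lines (SD, n = 3; limma, adjusted p = 0.000405 and 0.0106). Of 10 mammary epithelial markers 5 carried a symbol and could be checked. The luminal keratin gene Krt8 was bright, at 12.41 ± 0.09 in wild-type lines against 12.72 ± 0.12 in knockouts. The E-cadherin gene Cdh1 differed the other way, from 7.87 ± 0.14 to 7.16 ± 0.08. The basal keratin gene Krt5 was dim in wild-type lines, at 4.91 ± 0.17, and higher in knockouts, at 5.52 ± 0.15. Tacstd1 (now Epcam) and Csn2 were also higher in knockouts, from 7.99 ± 0.19 to 8.79 ± 0.05 and from 7.97 ± 0.08 to 8.48 ± 0.22. The knockout arrays differed from the wild-type arrays in the bioC spike-in control, by -1.27 log2 units. The bioB, bioD and cre controls differed by 0.06, -0.19 and 0.05. The gap between the 3′ and 5′ probe sets of Actb was 3.05 ± 0.22 in wild-type and 3.48 ± 0.05 in knockout arrays. For Actb the genotypes did not overlap, with 3.29 the highest wild-type and 3.44 the lowest knockout value. For Gapdh this gap was 2.77 ± 0.63 and 3.52 ± 0.35, and the genotypes overlapped. The part of these measures in the differences given here was not tested. Array medians lay between 5.41 and 5.50 log2 units. With 3 arrays per genotype the median standard error over all probe sets was 0.183 log2 units.

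The 5 class I genes differed in both directions. H2-Q1 and B2m were higher in the knockout lines, H2-T23 and Tapbp were lower, and H2-K1 was higher by a margin near the spread between the lines. In all 5 probe sets the genotypes did not overlap, where 21.9% of all probe sets behaved so; the same comparison chose the members, so nothing is read from this count. Across all probe sets 48 passed a limma test at an adjusted p under 0.05 (0.107%), and 0 of the 5 did, with 4 of the 5 at an unadjusted limma p under 0.05, where the share over all probe sets was 15.4%. With array weights 239 probe sets passed, H2-Q1 and H2-T23 among them, and with an intensity trend H2-T23 passed. With dim probe sets left out 6 passed, and with the equal-variance test 3, no member among either. Leaving out 1 line gave between 1 and 327 calls over all probe sets (327 without knockout line 75) and 0 among the members.

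**Figure D2:**
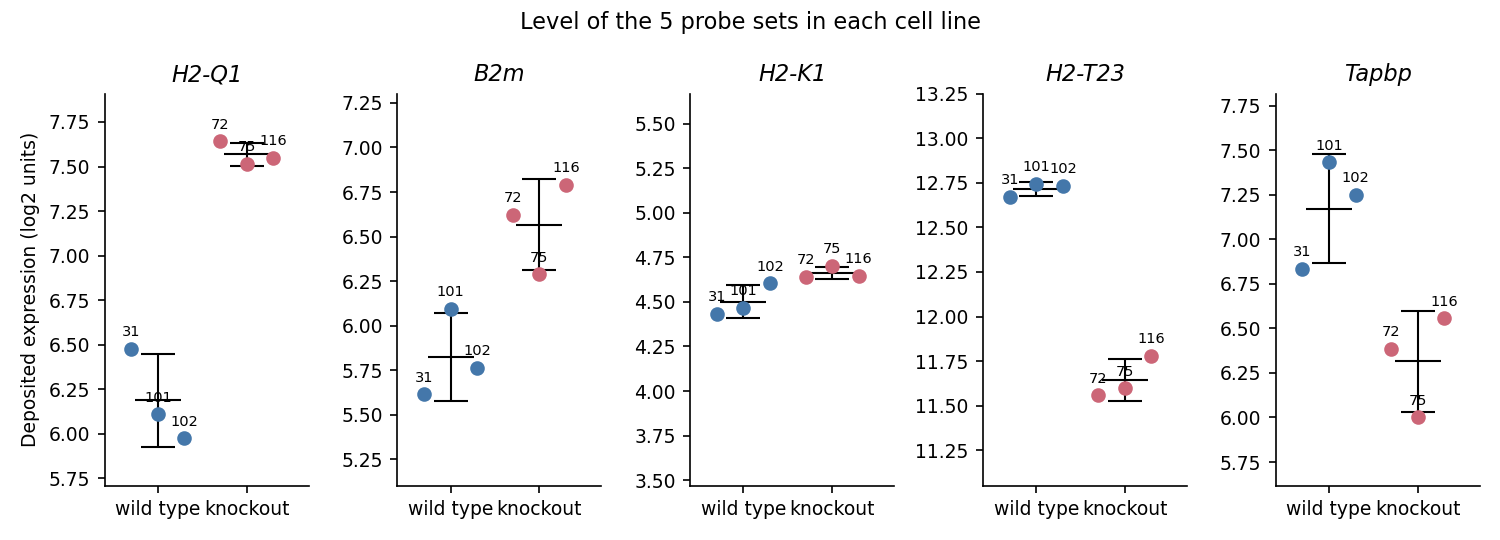
Deposited expression (log2 units, vertical axis) of the 5 probe sets in each wild-type (blue) and knockout (red) line, with the line number beside each point; bars give the mean and SD of 3 lines, and every panel spans the same number of log2 units. H2-Q1 and H2-T23 are the most widely separated, in opposite directions, with gaps of 1.04 and 0.89 log2 units between the genotypes, and the H2-K1 points lie close together.

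H2-Q1 was the heavy chain gene with the largest difference of the 3, with higher levels in the knockout lines. Its probe set (1418734_at) read 6.48, 6.11 and 5.98 log2 units in wild-type lines 31, 101 and 102, and 7.64, 7.52 and 7.55 in knockout lines 72, 75 and 116. The knockout lines lay close together, within 0.13 log2 units, while the wild-type lines spread over 0.50 with line 31 highest. The lowest knockout line stood 1.04 log2 units above the highest wild-type line. The means were 6.19 ± 0.26 and 7.57 ± 0.07 (SD, n = 3), a difference of 1.38 ± 0.16 log2 units (SE), or 2.60-fold. A share of 1.15% of all probe sets differed by as much in either direction.

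H2-T23, the Qa-1 gene, went the opposite way. Its probe set (1449556_at) was bright, at 12.67, 12.74 and 12.73 in wild-type lines 31, 101 and 102, and 11.56, 11.60 and 11.78 in knockout lines 72, 75 and 116. The wild-type lines differed by no more than 0.07 log2 units and all lay above every knockout line, by at least 0.89. Means of 12.72 ± 0.04 and 11.65 ± 0.12 gave a difference of -1.07 ± 0.12 log2 units (SE), a level 2.10-fold lower in the knockout lines. It stayed among the brightest probe sets in both genotypes, at or above the percentile 99.4 of each wild-type array and 98 of each knockout array. A difference of this size in either direction was seen in 2.91% of all probe sets.

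H2-K1, the classical heavy chain gene, differed least. Its probe set (1445915_at) read 4.43, 4.47 and 4.60 in wild-type lines 31, 101 and 102 and 4.64, 4.70 and 4.65 in knockout lines 72, 75 and 116. All 6 values lay below the median of their array, at percentiles 35.7 to 39.4. Line 102 stood only 0.04 log2 units below the lowest knockout line, and the difference of 0.16 ± 0.12 log2 units (SE), or 1.12-fold, is of the order of its standard error. Of all probe sets, 57.6% differed by at least as much. It was also the member nearest the limit for a symbol, with a p of 0.0451 in the authors' deposited table, where the p of the others ran from 0.000115 to 0.0239; probe sets just past the limit carry no symbol and could not be members. Class I heavy chain genes are close paralogs and are polymorphic between mouse strains, and whether these probes separate one paralog or allele from another was not tested.

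B2m, whose product pairs with every class I heavy chain, was higher in the knockout lines. The probe set (1418960_at) read 5.62, 6.10 and 5.76 in wild-type lines 31, 101 and 102 and 6.62, 6.29 and 6.79 in knockout lines 72, 75 and 116. Wild-type line 101 came within 0.19 log2 units of knockout line 75, so that the gap between the genotypes was smaller than the range within either, 0.48 and 0.50. Means of 5.83 ± 0.25 and 6.57 ± 0.26 (SD, n = 3) differed by 0.74 ± 0.19 log2 units (SE), or 1.67-fold. This probe set was of middling level, at percentiles 52.6 to 66.8 of its arrays.

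Tapbp, the tapasin gene, was lower. Its probe set (1450378_at) read 6.83, 7.43 and 7.25 in wild-type lines 31, 101 and 102 and 6.39, 6.0 and 6.56 in knockout lines 72, 75 and 116. Wild-type line 31 was nearest the knockout lines, 0.28 log2 units above line 116. The means were 7.17 ± 0.31 and 6.31 ± 0.28, a difference of -0.86 ± 0.22 log2 units (SE), a level 1.81-fold lower in the knockout lines. For B2m and Tapbp, 8.14% and 5.57% of all probe sets differed by at least as much in either direction.

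Although B2m and Tapbp differed in opposite directions between the genotypes, the lines of each genotype ranked alike for both. Line 101 was highest and line 31 lowest among the wild-type lines for both genes, and line 116 was highest and line 75 lowest among the knockout lines. The B2m value minus the Tapbp value of the same array, from which any shift of a whole array cancels, was -1.35 ± 0.13 over wild-type lines against 0.25 ± 0.03 over knockouts, a change of 1.60 log2 units or 3.03-fold. These SDs are smaller than those of either gene alone, which did not hold for every pair. Over wild-type lines the SD was 0.55 for H2-Q1 minus Tapbp and 0.44 for H2-Q1 minus B2m. Alone, H2-Q1, Tapbp and B2m had wild-type SDs of 0.26, 0.31 and 0.25. H2-Q1 minus H2-T23 changed by 2.45 log2 units, or 5.47-fold, from -6.53 ± 0.30 to -4.08 ± 0.16. Against B2m, H2-T23 was likewise lower in the knockout lines, by 1.81 log2 units or 3.51-fold. H2-Q1 and B2m differed from each other by less, with a change of 0.64 log2 units, and Tapbp and H2-T23 by 0.21. Each such change follows from the differences of the genes given above, which were chosen by this same comparison. Its size is therefore not read as a result.

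Set against probe sets of like level, H2-Q1 and H2-T23 lay outside the central 95% of differences and the others inside it. For probe sets with a mean level of 6.5 to 7.0 log2 units, which include H2-Q1 and Tapbp, that range ran from -1.24 to 0.97. For those of 12.0 to 12.5, which include H2-T23, it ran from -0.84 to 0.55. B2m fell inside -1.15 to 0.96 and H2-K1 inside -0.885 to 0.721. The median difference was 0.161 over the 5 members, 0.026 over all probe sets and -0.268 over the probe sets with a symbol. A symbol required a low deposited p, and probe sets with a symbol had a median absolute difference of 0.576, against 0.2 over all. The members come from the former and were set against the latter. A place outside the range is therefore not read as a result, nor are the shares of all probe sets given above.

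**Figure D3:**
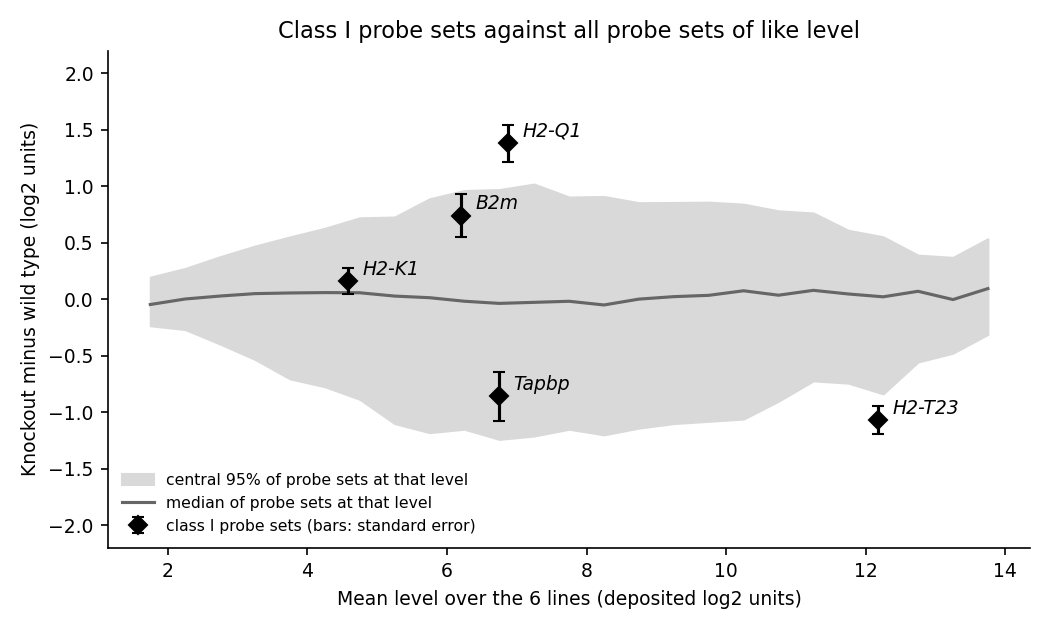
Difference between the genotypes (knockout minus wild type, log2 units, vertical axis) against mean level (log2 units, horizontal axis) for the 5 class I probe sets, as diamonds with standard errors, over the central 95% (grey) and median (line) of all probe sets in steps of 0.5 log2 units. H2-Q1 at 1.38 lies above the grey band and H2-T23 at -1.07 below it. The class I probe sets were chosen for a low deposited p, unlike those of the band.

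Few partner genes of the class I pathway carried a symbol. Of 23 class I and class I-like genes the 3 members alone were named, and of 12 genes for peptide loading and trimming B2m, Tapbp and Lnpep were. Lnpep, an aminopeptidase that can trim peptides for cross-presentation, averaged 8.81 ± 0.19 in wild-type lines against 8.09 ± 0.16 in knockouts, a difference of -0.71. No probe set was named for any of the 6 immunoproteasome genes, the 32 interferon-stimulated genes, the 10 class II genes or the 9 natural killer receptor ligand genes of the lists. A symbol missing here says only that no probe set at a deposited p under 0.05 carried it.

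Of 14 interferon receptor and signalling genes 8 were named, and 6 of these had lower levels in the knockouts and 2 higher ones. Their median difference was -0.979, against -0.268 over all probe sets with a symbol. Jak1, the kinase bound to both interferon receptor types, differed most: 7.02, 7.74 and 7.63 in lines 31, 101 and 102 against 5.78, 4.89 and 4.90 in lines 72, 75 and 116, a level 4.84-fold lower. Ifngr2, a chain of the interferon gamma receptor, averaged 8.95 ± 0.22 against 7.54 ± 0.30 in the knockout lines, and its partner Ifngr1, dim on these arrays, 3.57 ± 0.21 against 2.67 ± 0.29. The genotypes did not overlap in any of the 8, against 21.9% of all probe sets; a symbol required a low deposited p for this comparison, so nothing is read from that count. The type I receptor chains went in opposite directions, Ifnar1 differing by -1.31 log2 units (6.08 ± 0.19 and 4.77 ± 0.11) and Ifnar2 by 0.91 (7.83 ± 0.18 and 8.74 ± 0.22). Stat3, a transcription factor activated by JAK kinases, differed by -1.06 log2 units (8.94 ± 0.12 and 7.88 ± 0.16). In limma 0 of the 8 passed after adjustment over the whole table (0.107% of all probe sets did), and 8 had an unadjusted p under 0.05 (15.4% of all), a count that the choice by deposited p also bears on.

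Transcription factors of class I promoters were split. Of 15, 4 were named, 2 higher and 2 lower. The NF-kB subunit genes Rela and Relb were lower in the knockout lines, at 9.17 ± 0.34 against 10.36 ± 0.35 and 5.80 ± 0.35 against 6.78 ± 0.50. Rfx5, a subunit of the RFX complex that binds MHC promoters, and Creb1 differed by 0.31 and 0.27; Creb1 was dim, with means of 2.38 and 2.66. In limma 0 of these 4 passed after adjustment, against 0.107% of all probe sets, and 2 were below 0.05 unadjusted, against 15.4%. These 4 too carry a symbol only because their deposited p was low.

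The constitutive proteasome, which produces many class I peptides, was also mixed. Among 32 subunit genes 15 carried a symbol, 8 with higher and 7 with lower knockout levels, and their median difference was 0.172. Psmd2 and Psmd14 of the regulatory particle differed by -0.88 and -1.09, and the core subunit genes Psmb2 and Psma4 by -0.63 and -0.69. Psmb1 and Psma6, also of the core, differed by 1.01 and 0.52. In limma 0 of the 15 passed after adjustment (0.107% of all probe sets) and 12 were below 0.05 unadjusted (15.4% of all); since the symbol required a low deposited p, this count says nothing particular about the proteasome. A second probe set of Adrm1, a ubiquitin receptor of the proteasome, differed by 0.42, whereas its brighter one differed by -0.32.

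**Figure D4:**
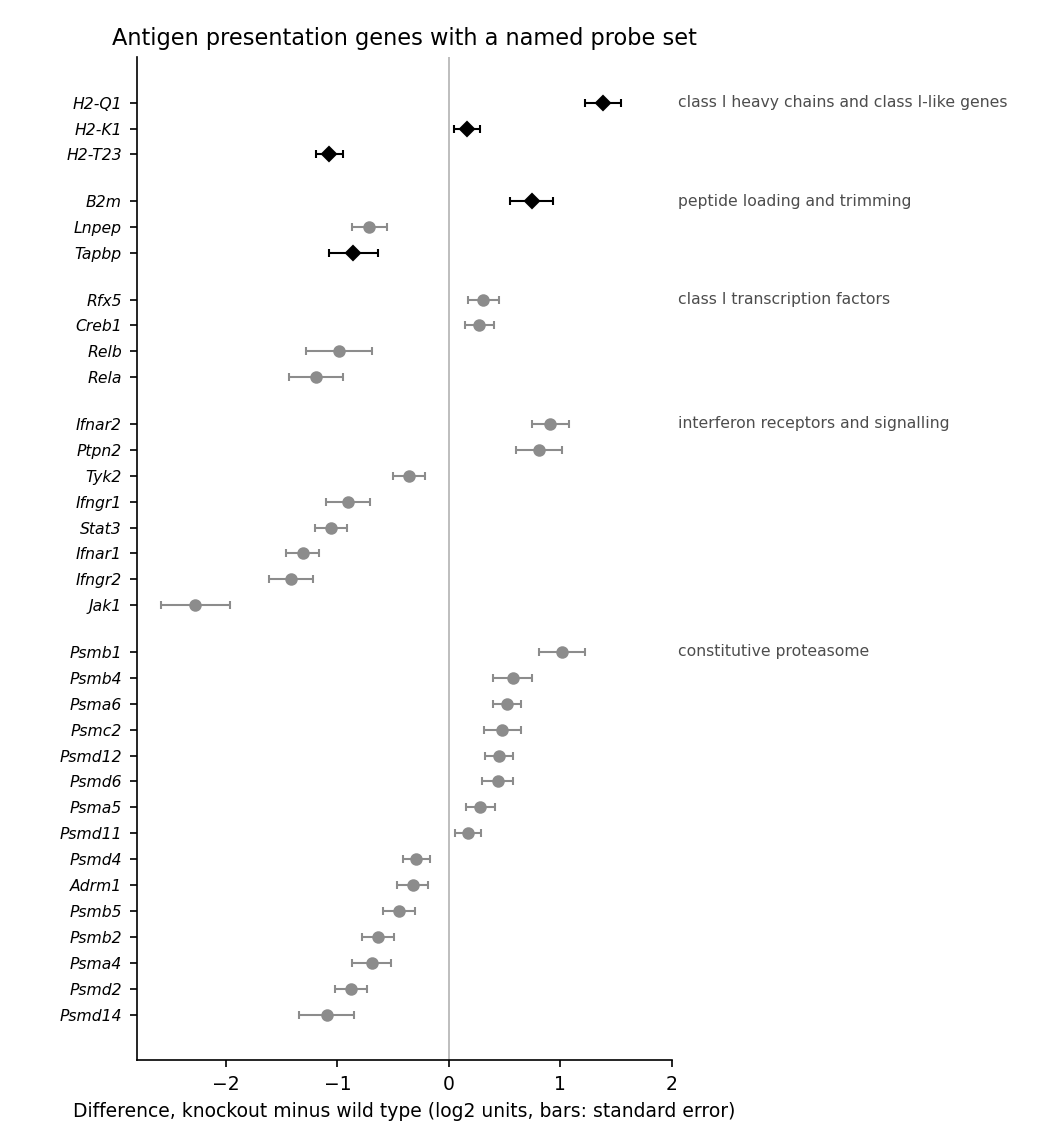
Difference between the genotypes (knockout minus wild type, log2 units, horizontal axis, with standard errors) for each gene of 5 lists that had a named probe set, the class I genes as black diamonds. Jak1 lies furthest to the left at -2.27, and the class I genes span -1.07 to 1.38.

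Along chromosome 17, most of the other named genes between Tapbp and H2-T23 were lower. The interval from Tapbp to H2-T23 spans 2.11 Mb and holds 124 protein-coding genes in the RefSeq table, of which 22 were named. Apart from the 4 class I genes 14 had lower and 4 higher knockout levels, and the median difference was -0.781, while 53.7% of all probe sets with a symbol were lower. H2-Q1 thus differed in the opposite direction from most named genes of the interval, but not from all near it. Bat2 (now Prrc2a) before it and Vars2 after it differed by -2.06 and -1.40. The next named genes after Vars2, which were Ddr1, Tubb5 and Mdc1, were higher, by 0.37, 0.83 and 0.36. Tapbp and H2-K1, whose starts lie 76.5 kb apart, differed in opposite directions, as did H2-Q1 and H2-T23, 709.0 kb apart. A symbol required a low deposited p for this comparison, so the direction of the unnamed genes in the interval is not known. No test was made of the interval.

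**Figure D5:**
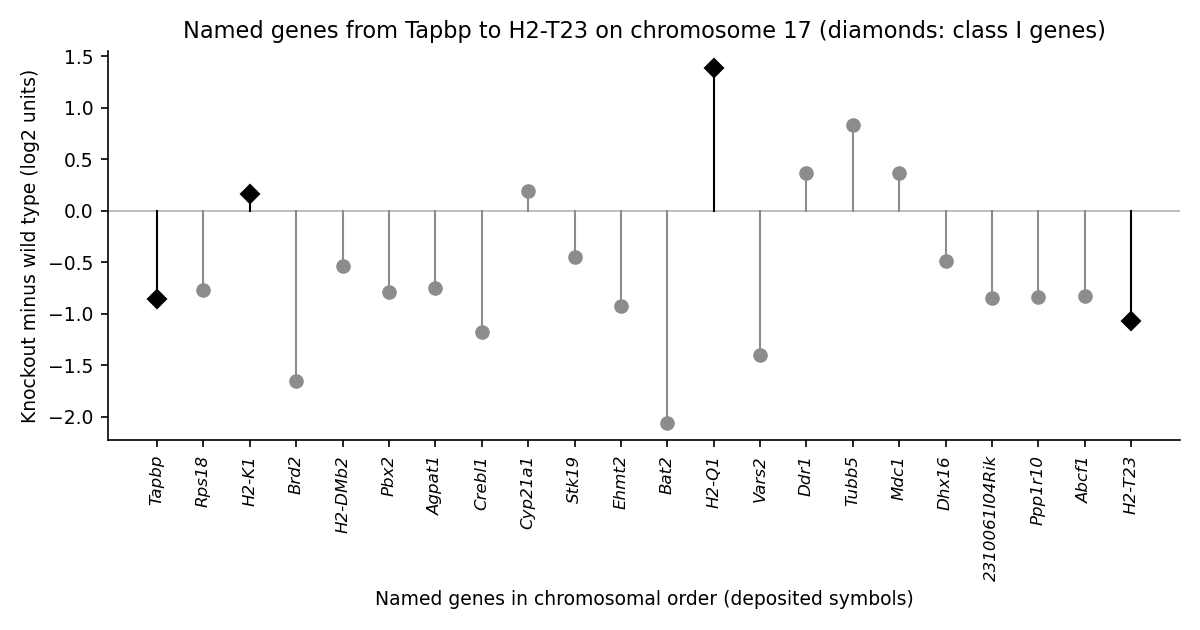
Difference between the genotypes (knockout minus wild type, log2 units, vertical axis) for the 22 named genes from Tapbp to H2-T23 on chromosome 17, in chromosomal order, the class I genes as black diamonds. Of the other 18 genes 14 lie below 0, and H2-Q1 at 1.38 is the highest point.

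Leukocytes and stromal cells, which also express class I genes, could be seen only through markers with a symbol. Of 15 leukocyte markers 3 were named, Cd8a, Laptm5 and Coro1a, with differences of 0.87, -0.79 and -0.69. Cd8a was dim, with means of 3.71 in wild-type and 4.59 in knockout lines. The mean level of the 3 leukocyte markers ran from 6.30 to 6.57 over wild-type lines and from 6.08 to 6.34 over knockouts. None of 10 fibroblast markers was named, and of 5 endothelial and 4 adipocyte markers Plvap and Lipe were, at -1.40 and -0.62. Of the 5 mammary epithelial markers with a symbol, 4 had higher and 1 had lower knockout levels, and their mean level ran from 8.20 to 8.24 over wild-type lines and from 8.48 to 8.58 over knockouts. The part of other cell types in the class I differences was not tested. In bulk cultures a lower share of expressing cells and less RNA per cell cannot be told apart.

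The genes whose profile over the 6 lines lay nearest to a member were named by the root-mean-square difference between profiles centred on their own means, among 4457 other named genes. Because members went both ways, their mean profile was nearly flat, between -0.11 and 0.15 log2 units, and genes near to it were flat too, among them Tex18, Surf2, 6720420G18Rik and Olfr78, at 0.054 to 0.069 log2 units. For each member alone, a comparison added after the data were seen, the nearest gene was Asb13 for H2-Q1 (0.197), Slc30a4 for B2m (0.067), 1810008I18Rik for H2-K1 (0.021), 4633401B06Rik for H2-T23 (0.078) and Fer1l3 for Tapbp (0.069). The nearest gene to H2-Q1 was thus further off than the nearest gene to any other member.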

How the data were processed

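Per the labels' protocols, total RNA was extracted with Trizol, treated with DNase I, and 50 ng was amplified with a whole-transcript kit and labelled with biotin. The authors deposited log2 expression values for each probe set on each array; for scanning, background correction, summarisation and normalization, no step is stated in what was used here. The authors also deposited a p-value per probe set and, where that p was under 0.05, a log2 difference, a B score and mostly a symbol. The value table of the series differed from the workbook by at most 5e-09.

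The deposited log2 values were fitted by limma 3.58.1 under R 4.3.3 (a linear model of genotype, knockout minus wild type, without covariates, with moderated variances) over 45037 probe sets, leaving out 64 controls, with Benjamini-Hochberg adjustment over all of them and a threshold of 0.05. The fit was tested on simulated data. The number of arrays, 3 per genotype, limits the precision. The 5 members and the 14 gene lists were chosen with earlier results of these data known. Named were all members, Akt1, up to 6 genes of smallest p per list (brightest named probe set per gene) and the genes nearest in profile, of which 1 is not reported here; neighbours in the chromosome interval, further markers and second probe sets were named after their values were seen. Symbols were updated through RefSeq (GRCm38.p6), where 4082 of 4462 named genes matched, and promoters are RefSeq's; the motifs were chosen after the sequences were seen. The alternatives were quantile normalization, median centring, a filter on dim probe sets, an intensity trend, robust moderation, array weights, the equal-variance test, the series value table, averaging the probe sets of each gene, and leaving out each line.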

Additional observations from a re-analysis of the deposited data

How the results depend on the processing

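All 5 members kept their direction under every alternative run. Leaving out 1 line at a time, the difference ran from 1.28 to 1.53 log2 units for H2-Q1, 0.63 to 0.88 for B2m, 0.13 to 0.21 for H2-K1, -1.14 to -1.03 for H2-T23 and -1.03 to -0.70 for Tapbp. The number of members passing the adjusted limma threshold was 0, but 1 with an intensity trend (H2-T23) and 2 with array weights (H2-Q1 and H2-T23), and 0 without any single line. Over all probe sets the 48 calls became 6 with dim probe sets left out, 239 with array weights, 3 with the equal-variance test, and between 1 and 327 without 1 line (327 without knockout line 75, 2 without wild-type line 31, and 1 without each of the other 4); the cause was not tested. The dim filter removed H2-K1. The counts of lower genes in the 7 lists with at least 3 named genes stayed within 1.5 times under each alternative that could be run; lists that lost a gene to the dim filter gave no value there. No paired analysis was possible because the lines of the genotypes share no number.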

Other observations

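One more H2 symbol was named besides the class I members. H2-DMb2, which encodes a chain of the H2-M molecule that loads peptides onto MHC class II, averaged 7.71 ± 0.11 log2 units in wild-type lines against 7.18 ± 0.02 in knockouts (SD, n = 3), a difference of -0.54; it was chosen after its values were seen. The class II chain genes H2-Aa, H2-Ab1 and H2-Eb1, the invariant chain gene Cd74 and Ciita had no named probe set. Map3k8, which encodes the kinase Tpl2, was the third nearest gene to H2-Q1 in profile, with a root-mean-square difference of 0.212 log2 units and a difference between the genotypes of 1.21.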
